A study of Mus musculus with 27 samples.

Results

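The inner root sheath (IRS) is the rigid sleeve that moulds the growing hair, and its cells carry a keratin set of their own. The data described here are the transcripts of the 8 genes of that set, chosen by symbol alone, in skin cells, in cultured hair follicle stem cells (HFSCs) and in RNA-seq libraries of HFSC cultures. Krt25, Krt26, Krt27 and Krt28 encode type I keratins, and Krt71, Krt72, Krt73 and Krt74 encode type II keratins. All 8 were rows of the RNA-seq count table, and 7 were features of the single-cell matrices. Krt74, annotated in the mouse as a transcribed unitary pseudogene, was not analysed here in single cells.

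A keratin filament is built from heterodimers of 1 type I and 1 type II chain, so a cell that makes filaments needs a partner of each type. The IRS has 3 layers, Henle, Huxley and cuticle, which arise from dividing matrix cells at the base of the follicle and keratinise before the hair shaft does. From background knowledge, keratins 25, 27, 28 and 71 belong to all layers, while keratins 26, 72 and 73 belong to the cuticle.

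The genes of each type lie side by side on the minus strand of GRCm38 (mm10). The 4 type I genes fill 59.4 kb of chromosome 11, chr11:99315516-99374903, and the 4 type II genes fill 68.4 kb of chromosome 15, chr15:101733949-101802346. The 250 bases before the RefSeq start site were available for 7 members and were searched on both strands for 3 short motifs. GATAA, the core letters that GATA factors such as the sheath regulator Gata3 bind, was found in 5 of the 7 windows (Krt25, Krt27, Krt28, Krt71 and Krt73), each time on the strand of the gene, and in 22.6% of 32851 RefSeq windows. CTTTGA, core letters of TCF/LEF sites, was found in the window of Krt28 alone (13.8% of all windows), and AGGTCA, the letters of a nuclear receptor element, was found in no member window (14.0% of all windows). The windows of Krt25 and Krt71, the most abundant member of each type, and of Krt27 and Krt73, which share cells in the sheath as described below, are shown 5′ to 3′ with GATAA in capitals.
Krt25, chr11:99322952-99323201, minus strand: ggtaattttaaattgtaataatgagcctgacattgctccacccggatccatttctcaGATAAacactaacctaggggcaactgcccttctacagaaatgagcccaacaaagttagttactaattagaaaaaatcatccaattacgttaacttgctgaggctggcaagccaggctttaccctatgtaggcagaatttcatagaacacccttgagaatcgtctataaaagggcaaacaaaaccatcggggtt
Krt71, chr15:101743098-101743347, minus strand: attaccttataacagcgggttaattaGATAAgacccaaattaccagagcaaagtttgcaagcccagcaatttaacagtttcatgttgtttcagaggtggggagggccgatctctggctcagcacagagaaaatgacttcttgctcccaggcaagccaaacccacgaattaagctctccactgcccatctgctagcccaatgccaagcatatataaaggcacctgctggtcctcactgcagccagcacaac
Krt27, chr11:99351119-99351368, minus strand: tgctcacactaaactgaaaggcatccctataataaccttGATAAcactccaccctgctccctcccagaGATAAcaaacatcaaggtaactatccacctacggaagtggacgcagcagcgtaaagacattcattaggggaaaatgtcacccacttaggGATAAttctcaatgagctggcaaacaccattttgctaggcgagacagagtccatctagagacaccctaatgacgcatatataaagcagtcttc
Krt73, chr15:101802361-101802610, minus strand: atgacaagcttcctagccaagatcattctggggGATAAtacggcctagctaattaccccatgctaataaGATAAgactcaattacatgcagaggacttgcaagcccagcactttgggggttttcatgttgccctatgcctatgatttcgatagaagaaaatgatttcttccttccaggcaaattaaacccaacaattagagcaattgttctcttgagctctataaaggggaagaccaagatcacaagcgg
In Krt25 the match began 193 bases before the start site and in Krt71 224 bases before it. Krt27 held 3 matches, beginning 211, 182 and 93 bases before its start, and Krt73 held 2, at 217 and 181 bases. A match of these letters is a description and not a bound site.

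Skin cells came from the back skin of 2 wild-type mice at postnatal day 32, in the last stage of hair growth (anagen VI). By the paper's account they had been enriched by sorting for cells without CD45, CD31, CD140a and CD117. The cells were counted as unique molecular identifiers (UMIs) by a 3′ method, in which each transcript is counted once whatever its length. The cultured cells were CD34+ HFSCs of the same mice, passaged and grown as 7 hashtagged 3D cultures: serum (FBS), serum-free medium (B-27), and that medium with all-trans retinoic acid and a protein kinase C inhibitor (atRA+PKCi), alone or with R-spondin (Rspo), BMP2/4, Rspo+BMP2/4, or Rspo+BMP2/4 and a retinoic acid receptor inhibitor (RARi). The 8 RNA-seq libraries were HFSC cultures from wild-type mice and from mice in which Sox9-CreER deletes a floxed Rxra (Sox9-CreER;Rxra-fl/fl;R26-YFP, Rxra cKO, with Cre under the control of Sox9), in the resting phase at postnatal day 55, 2 mice of each genotype, each grown in FBS and in atRA+PKCi.

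After filters, 13625 and 13328 skin cells of mouse 1 and mouse 2 remained, with a median of 8671 and 10380 UMIs per cell, and 46 barcodes occurred in both libraries. Clusters were made without the member genes. The 7460 hair lineage cells fell into 12 sub-clusters, and 3 of these, with 1647 cells (953 and 694 per mouse), were called IRS-like from other markers of the sheath. Sub-clusters are called here by a leading gene. Gata3, a transcription factor of the IRS, was at 548 and 597 CPM (UMIs of the gene scaled to 1000000 UMIs of the same cells) in mouse 1 and mouse 2 in the Prr9-led IRS-like sub-cluster (519 cells), at 754 and 785 CPM in the Wdr47-led one (391 cells), and at 413 and 395 CPM in the histone-led one (737 cells). Outside these 3 it ranged from 23.7 CPM (Gpnmb-led cells of mouse 2) to 255 CPM (Ung-led cells of mouse 1) over the lineage. The scores for the IRS marker list were 1.11 (Prr9-led), 0.86 (Wdr47-led) and 0.151 (histone-led), with 5, 4 and 4 of its markers detected. The name thus rests on little for the histone-led cells, the largest of the 3. Tchh, a marker of the list, was also a leading gene of the Gpnmb-led cells. The Wdr47-led cells were the shallowest of the 3, with a median of 7304 UMIs, and 271 of the 391 came from mouse 2.

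Krt71, Krt25 and Krt28 made up most of the IRS keratin transcripts. In IRS-like cells Krt71 was at 3651 CPM in mouse 1 and 2904 CPM in mouse 2. Krt25 was at 2308 and 1753 CPM, and Krt28 at 1160 and 985 CPM. These 3 genes kept the same order in both mice, and within each mouse the step from one gene to the next was larger than the difference between the mice for either gene.

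The other members were rarer. Krt73 was at 408 and 362 CPM and Krt27 at 239 and 177 CPM. Krt72 was at 22.0 and 14.6 CPM, and Krt26 at 1.41 and 1.09 CPM. Krt25 gave 62.2% and 60.1% of type I UMIs in the 2 mice, and Krt71 gave 89.5% and 88.5% of type II UMIs.

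The Prr9-led sub-cluster had the highest level of every member but Krt26 in both mice. There Krt71 was at 6396 and 5622 CPM, Krt25 at 4058 and 3381 CPM, and Krt28 at 2036 and 2074 CPM. Krt73 was at 1064 and 1312 CPM, against 147 and 149 CPM in the Wdr47-led and 98.6 and 69.0 CPM in the histone-led sub-cluster. Krt72 was almost confined to the Prr9-led cells, at 67.1 and 63.9 CPM, and was at or below 1.33 CPM in the other two IRS-like sub-clusters. The type II keratins of the cuticle and the keratins of all layers thus had their highest levels in the same sub-cluster.

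Krt26 went against its name in these cells. Its highest level was in the Gpnmb-led medulla-like sub-cluster, at 34.2 and 30.0 CPM, followed by the Shh-led matrix-like sub-cluster, at 24.99 and 13.01 CPM. In IRS-like cells it was found in 14 of 9939370 UMIs in mouse 1 and 9 of 8247526 in mouse 2. The medulla is the core of the hair shaft. The level of Krt26 in medulla-like cells was 11.3 and 12.7 times that in IRS-like cells in the 2 mice.

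**Figure D1:**
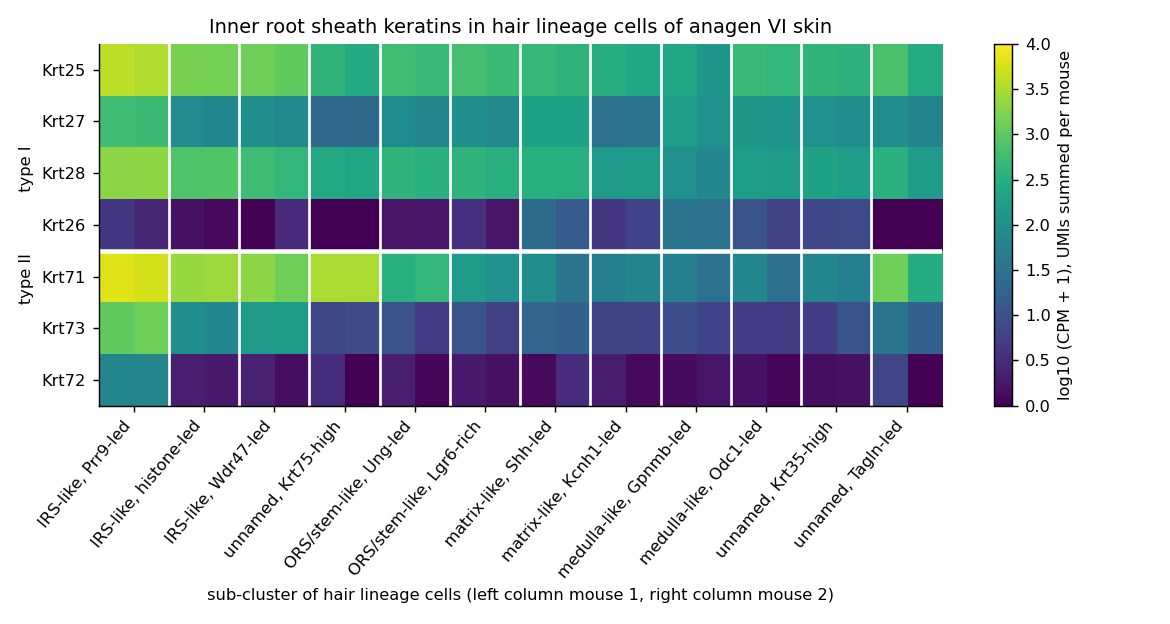
Levels of the 7 members analysed in single cells, as log10 of CPM + 1 by colour, in the 12 sub-clusters of hair lineage cells (columns, mouse 1 left and mouse 2 right within each). The Prr9-led cells are brightest for 6 members, Krt26 is brightest in the Gpnmb-led cells, and the Krt75-high cells are bright for Krt71 alone among type II members.

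Free RNA from broken cells gives keratin UMIs in cells that do not express keratins, so 7 classes that should lack these genes (fibroblast, dermal papilla, mural, endothelial, immune, melanocyte and muscle) were read in the same way. Several of these classes were present although the sort was meant to deplete them, and the fibroblast class held 4607 and 3787 cells in mouse 1 and mouse 2. Over these classes and both mice Krt25 lay between 23.3 and 276 CPM, Krt71 between 29.7 and 199 CPM, and Krt28 between 16.1 and 135 CPM. Krt27 lay between 5.23 and 53.2 CPM, Krt73 between 3.85 and 36.4 CPM, Krt72 between 0 and 5.64 CPM and Krt26 between 0 and 2.42 CPM. The levels of all members but Krt26 in the Prr9-led cells were above these ranges, and so was Krt26 in the medulla-like and Shh-led cells. The upper ends for Krt25, Krt27 and Krt28 came from muscle of mouse 1 (90 cells, median 2078 UMIs). Those for Krt71 and Krt73 came from melanocytes of mouse 2 (140 cells). In the deeper fibroblasts (median 8649 and 12010 UMIs) Krt25 was at 34.4 and 23.3 CPM and Krt27 at 7.09 and 5.68 CPM. Krt71 was at 48.2 and 29.7 CPM there, and Krt73 at 5.41 and 4.05 CPM. A level within these ranges is thus not shown to be free RNA.

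Matrix-like, medulla-like and outer root sheath (ORS) and stem cell-like cells held more type I than type II transcripts. The last are sub-clusters that scored 0.511 (Lgr6-rich) and 0.392 (Ung-led) for their marker list, with Sox9 not among the markers detected. The skin clusters named ORS and stem cells (809 and 1949 cells) lay outside the hair lineage cells and are not described here. In matrix-like cells Krt25 was at 435 and 325 CPM, Krt28 at 300 and 235 CPM and Krt27 at 174 and 117 CPM, all above the range of the classes that should lack them. In the Kcnh1-led matrix-like cells alone, Krt27 (30.1 and 34.2 CPM) and, in mouse 2, Krt25 (248 CPM, against 315 CPM in mouse 1) were within that range. Krt71 was at 86.4 and 48.2 CPM and Krt73 at 16.15 and 10.99 CPM, both within that range, though above the fibroblast levels of the same mouse. Krt71 was 42.3 and 60.2 times higher in IRS-like than in matrix-like cells in the 2 mice, whereas Krt25 was 5.31 and 5.40 times higher and Krt27 1.37 and 1.52 times higher.

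In medulla-like cells Krt25 was at 438 and 330 CPM and Krt27 at 143 and 114 CPM, and Krt71 was at 63.4 and 29.2 CPM, not above the background range. The level of Krt25 came mainly from the Odc1-led cells, at 515 and 443 CPM. In the Gpnmb-led cells Krt25 (223 and 129 CPM) and Krt28 (102 and 70.3 CPM) were within the background range, and Krt27 (175 and 111 CPM) was above it. Krt28 over all medulla-like cells was at 153 CPM in mouse 1 and at 126 CPM in mouse 2, the latter within that range. In the Shh-led matrix-like cells Krt27 was at 210 and 203 CPM, its second highest level of the 12 sub-clusters in both mice.

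The balance between the types was expressed as the ratio of type I to type II UMIs. It was 0.909 and 0.889 in IRS-like cells of mouse 1 and mouse 2, and stayed between 0.860 and 1.08 over the 3 IRS-like sub-clusters and both mice. It was 9.03 and 11.4 in matrix-like cells and 10.9 and 17.3 in medulla-like cells. In the classes that should lack these genes it ranged from 1.124 to 3.00 in mouse 1 and from 1.16 to 2.07 in mouse 2. IRS-like cells lay below that range, and matrix-like and medulla-like cells above it. In the 2 ORS and stem cell-like sub-clusters the ratio was 6.75 and 8.52 (Lgr6-rich) and 3.25 and 2.04 (Ung-led). In these sub-clusters, which do not stand for ORS cells at large, Krt25 was higher than in matrix-like cells. It was at 652 and 522 CPM in the Lgr6-rich and 600 and 512 CPM in the Ung-led cells. Krt28 was higher too, at 396 and 336 CPM and 403 and 351 CPM. Krt71 was at 325 and 451 CPM in the Ung-led cells, above the range of the classes that should lack it.

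A further sub-cluster was tilted the other way. Its 212 cells were led by Ly6d and Tm4sf1 and were high for Krt75, the keratin of the companion layer between IRS and ORS, at 1464 and 1022 CPM. It was left unnamed because only 2 of the companion layer markers were detected. Krt71 was at 3096 and 3145 CPM there, the second highest level of the 12 sub-clusters, while Krt25 was at 420 and 275 CPM, Krt73 at 6.35 and 7.06 CPM, and Krt72 at 2.38 and 0 CPM. The ratio of type I to type II members was 0.224 and 0.165. Gata3 was at 148 and 183 CPM and the IRS protease Ctsc at 547 and 522 CPM in these cells.

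**Figure D2:**
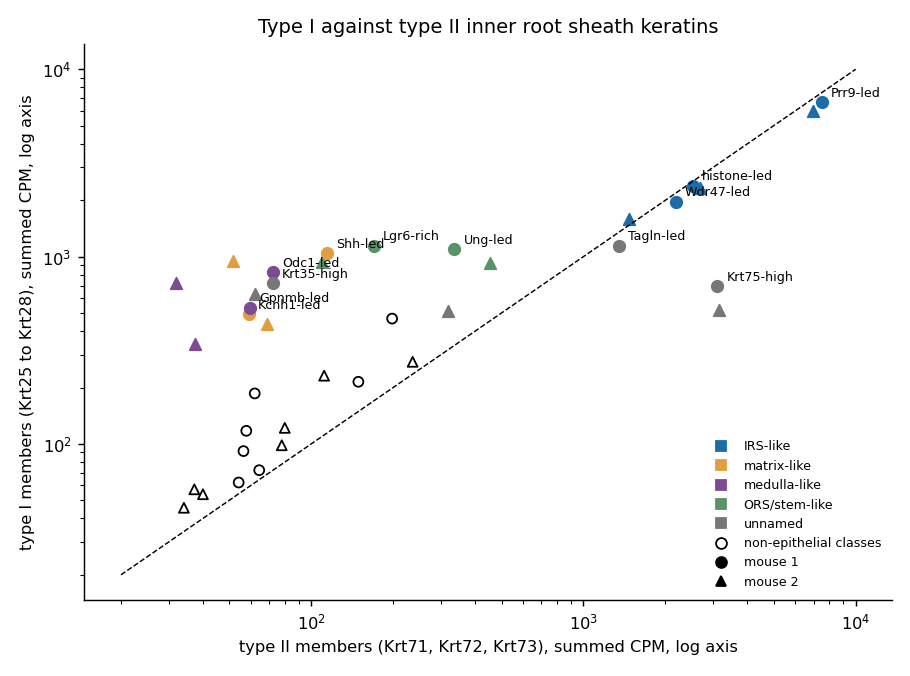
Summed CPM of type I members (vertical, log axis) against type II members (horizontal, log axis) in the 12 sub-clusters, coloured by class, and in 7 non-epithelial classes (open symbols), with circles for mouse 1 and triangles for mouse 2. IRS-like points lie close to the dashed line of equal levels (ratios 0.860 to 1.08), matrix-like and medulla-like points far above it, and the Krt75-high cells below it.

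Cells were then compared one by one after thinning each to 3000 UMIs. A UMI of both types was found in 88.0% of 937 IRS-like cells of mouse 1 and 80.9% of 680 of mouse 2, and type I alone in 8.86% and 10.7%. In matrix-like cells both types were found in 12.9% and 10.5%, and type I alone in 69.7% and 56.9%. In the Krt75-high sub-cluster, type II alone was found in 41.7% and 41.2% of cells, a pattern seen in 2.03% and 4.85% of IRS-like cells. These shares count members only. Keratins outside the set, such as Krt17 among the leading genes of the Krt75-high cells, were not counted. The commonest combination in IRS-like cells was Krt25 with Krt28 and Krt71 and no other member, in 35.9% of cells of both mice together.

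Within the IRS-like cells, Krt25 went with Krt71, and Krt27 and Krt28 went with Krt73. Across cells the Pearson correlation of log2 thinned UMIs was 0.46 and 0.50 for Krt25 and Krt71 in mouse 1 (937 cells) and mouse 2 (680 cells). It was 0.45 and 0.56 for Krt27 and Krt73, and 0.46 and 0.51 for Krt28 and Krt73. The 2 type II genes Krt71 and Krt73 were correlated at -0.18 and -0.16. Krt27 and Krt71 stood at 0.03 and 0.09. Genes of the same type went together as well, with Krt25 and Krt28 at 0.39 and 0.46 and Krt27 and Krt28 at 0.44 and 0.45. Krt25 and Krt73 stood at 0.26 and 0.25. These values are pooled over the IRS-like sub-clusters, which differed in level. Within the Prr9-led cells (346 and 159), Krt25 and Krt73 stood at 0.05 and 0.07, against 0.46 and 0.45 for Krt25 and Krt71. Krt28 stood there at 0.48 and 0.64 with Krt73 and at -0.09 and -0.18 with Krt71. Within the histone-led cells (477 and 259), Krt25 stood at 0.22 and 0.19 with Krt73 and at 0.26 and 0.25 with Krt71. The split was thus clear in the Prr9-led and not in the histone-led cells. Cells of 1 mouse share a library and are no replicates, so these values are descriptive.

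Cells rich in Krt73 show the same split. At least 3 UMIs of Krt73 were found in 151 and 82 IRS-like cells, among them 35.3% and 37.1% of the Prr9-led cells and at most 7.89% of either other IRS-like sub-cluster. Krt27 was found in 64.9% and 68.3% of the Krt73-rich cells and in 23.1% and 15.7% of cells without Krt73. Krt71 ran the other way, found in 68.2% and 62.2% of Krt73-rich cells and in 86.2% and 82.3% of cells without Krt73.

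Many Krt73-rich cells had no Krt71 UMI after thinning, 48 of 151 (31.8%) in mouse 1 and 31 of 82 (37.8%) in mouse 2. Krt25 was present in 98.7% and 97.6% of the Krt73-rich cells, and Krt28 in 97.4% and 97.6%. Krt72, the other cuticle keratin of type II, was found in 9.93% and 13.4% of them and in 0.445% and 0.365% of cells without Krt73.

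**Figure D3:**
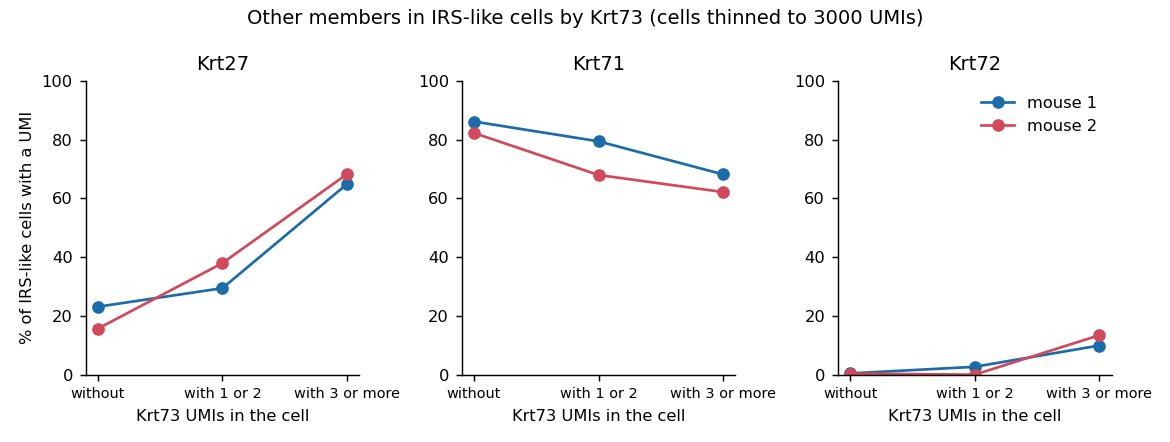
Percent of IRS-like cells with a UMI of Krt27, Krt71 or Krt72 (vertical) by the Krt73 UMIs of the same cell (horizontal), for each mouse, after thinning to 3000 UMIs. From cells without Krt73 to cells with 3 or more, Krt27 goes from 23.1% and 15.7% to 64.9% and 68.3%, and Krt71 from 86.2% and 82.3% to 68.2% and 62.2%.

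For the order of onset, the 2764 matrix-like and IRS-like cells were placed on a diffusion pseudotime computed without the members and cut into 10 bins of equal size. Bin 1 was the matrix end. The first 3 bins were almost all matrix-like (0%, 2.54% and 3.62% IRS-like), bin 5 was 80.4% IRS-like, and bins 9 and 10 were wholly IRS-like. Lef1, a matrix factor, was found in 94.8% of cells in bin 1 and 19.2% in bin 10, and Gata3 in 22.0% and 60.1%, with its highest share, 78.0%, in bin 6. The share of cells from mouse 1 varied from 23.8% to 65.9% between bins.

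By the share of cells with at least 1 UMI, Krt25, Krt27 and Krt28 stood ahead of the type II members on this axis. Krt25 was found in 42.5% of cells in bin 1, 64.1% in bin 3 and at most 92.6% (bin 8). Krt28 was found in 27.6% in bin 1, 54.6% in bin 3 and at most 88.6% (bin 8). Krt71 was found in 9.33%, 12.5%, 15.8% and 19.3% of cells in bins 1 to 4, then in 52.1% in bin 5 and 96.0% in bin 9. In the classes that should lack these genes, thinned in the same way, Krt25 was found in 5.59% to 22.2% of cells, Krt28 in 4.11% to 23.1% and Krt71 in 8.33% to 17.9%. Krt71 was not above that background in bins 1 and 2 of either mouse. In bin 3 it was found in 10.8% of cells of mouse 1 and in 21.6% of mouse 2, the latter above the background. Krt25 was above it from bin 1 in both mice by the share of cells. By level, Krt25 in bin 1 was at 418 CPM in mouse 1 and 257 CPM in mouse 2. The latter was within the range of those classes, up to 276 CPM.

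The first bin with at least 50% of a member's highest share gives the order. It was bin 2 for Krt25 and Krt27, bin 3 for Krt28, bin 5 for Krt71 and Krt73, and bin 10 for Krt72, and each mouse taken alone on the shared axis gave the same 6 bins. Krt26 never exceeded 3.66% of cells, with its highest shares in the matrix-like bins. At a minimum of 3 UMIs per cell, Krt25, Krt28 and Krt73 stood at bin 6, Krt71 at bin 7 and Krt27 at bin 10. The lead of Krt25 over Krt71 was then 1 bin and not 3. Type II Krt73 was level with Krt25 and Krt28, and type I Krt27 came after Krt71, so the order by type did not hold.

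Krt27 and Krt73 were not monotone. Krt27 was found in 38.1% of cells in bin 3, 15.7% in bin 5 and 43.2% in bin 10. Krt73 reached 32.7% in bin 7, was at 11.3% in bin 9 and at 24.0% in bin 10. Krt72 was found in at most 0.373% of cells up to bin 9 and in 7.01% in bin 10. The mean number of members found per cell went from 0.963 in bin 1 to 3.41 in bin 10.

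**Figure D4:**
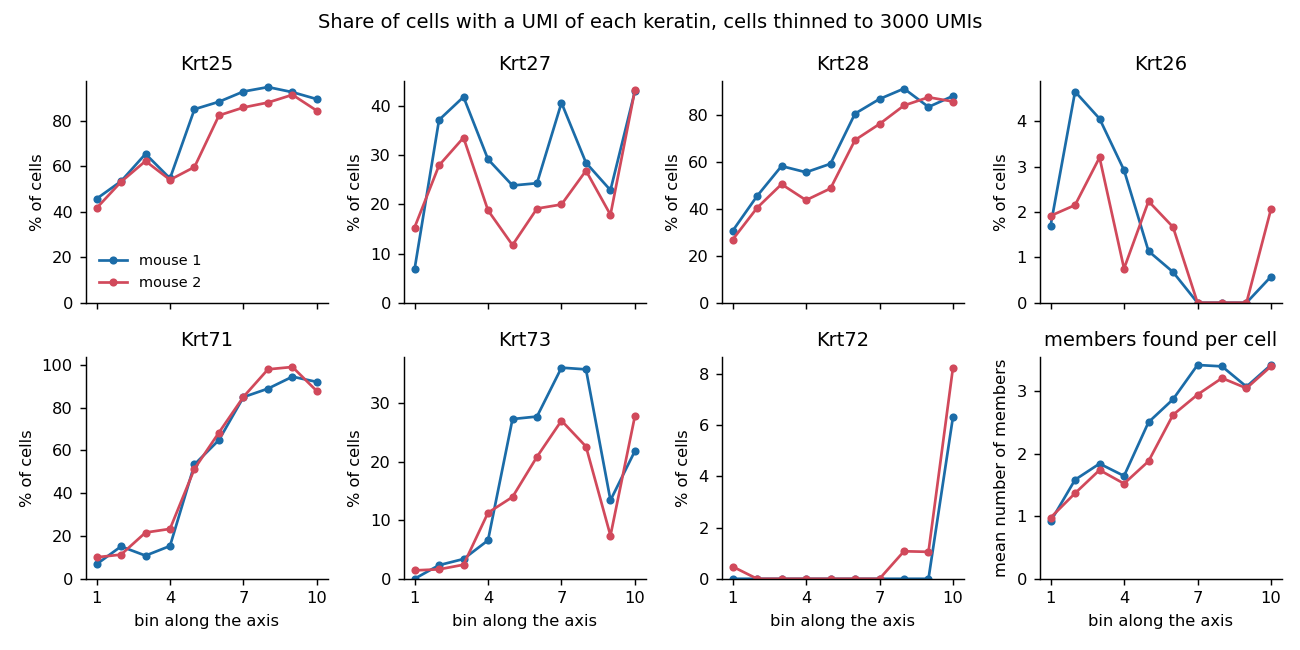
Percent of cells with a UMI of each member, and the mean number of members per cell (last panel), in 10 bins along the axis from matrix-like (bin 1) to IRS-like cells (bin 10), for each mouse. Krt25 and Krt28 start high, Krt71 steps up at bin 5, and Krt72 appears in bin 10 at 6.32% and 8.25% of cells.

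To see which members are transcribed in cells that still divide, IRS-like cells with at least 1 UMI of Top2a or Mki67, genes of dividing cells, were set against those with none. There were 798 and 630 cells with and 155 and 64 cells without such a UMI in mouse 1 and mouse 2. The Prr9-led sub-cluster held 72.6% of the cells without and 25.2% of the cells with it. The median depth was 10621 and 10936 UMIs in cells with, and 7651 and 7699 in cells without.

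All 6 members that could be tested were lower in the cells with Top2a or Mki67, and 3 passed the test. Krt72 was at 12.01 and 11.12 CPM with, and 95.4 and 66.0 CPM without (log2 fold change -2.85 ± 0.32 SE, adjusted p = 5.88e-05, edgeR quasi-likelihood test). Krt73 was at 280 and 306 CPM with, and 1347 and 1200 CPM without (-2.13 ± 0.39, adjusted p = 0.00293). Krt27 was at 183 and 149 CPM with, and 650 and 606 CPM without (-1.92 ± 0.37, adjusted p = 0.00443). For these 3 genes the sums of the 2 classes of cells did not overlap, which is a description only.

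Krt25, Krt28 and Krt71 did not pass, unlike Krt27, which also belongs to all layers. Krt25 was at 2024 and 1615 CPM with, and 4384 and 3833 CPM without (log2 fold change -1.18 ± 0.43 SE, adjusted p = 0.182). Krt28 had a log2 fold change of -1.23 ± 0.41 (adjusted p = 0.124) and Krt71 of -1.13 ± 0.45 (adjusted p = 0.225), both by edgeR. These 3 genes also had sums that did not overlap between the classes. The share of all genes without such overlap was not counted, so this is no result about the members. Krt26 did not pass the filter on low counts.

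The 3 of 6 members called, all lower, stand against 4.44% of 11747 genes called and 1.14% called lower. With the mouse as a block, all 6 members were called lower, against 20.1% of genes called and 8.62% called lower. Within the Prr9-led cells alone, a comparison added after seeing the data, edgeR called 0 of 6 members (4 at an unadjusted p under 0.05), against 0.375% of 9055 genes called and 0.0110% called lower. There the differences were -0.59 for Krt27, -0.75 for Krt73 and -1.13 for Krt72 on the log2 scale. With every cell thinned to 3000 UMIs before the split (678 and 554 cells with, 259 and 126 without), edgeR called 2 of 6 members, Krt72 (-2.71) and Krt73 (-2.11), both lower, against 2.65% of 9234 genes called and 0.541% called lower. Krt27 then had a log2 fold change of -1.51 and missed the threshold (adjusted p = 0.0538, edgeR). With at least 3 UMIs of Top2a and Mki67 set against none (623 and 518 cells with), 4 of 6 were called lower, Krt28 in addition (-1.46, adjusted p = 0.0406, edgeR), against 6.40% of 11515 genes called and 2.19% called lower.

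Even so, IRS-like cells with Top2a or Mki67 held much IRS keratin. Their summed type I members were at 3196 and 2681 CPM and their type II members at 3504 and 3013 CPM, and the ratio of the types was 0.912 and 0.890, against 0.899 and 0.884 in the cells without. At least 1 UMI of each type was found in 86.1% and 79.6% of them after thinning.

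**Figure D5:**
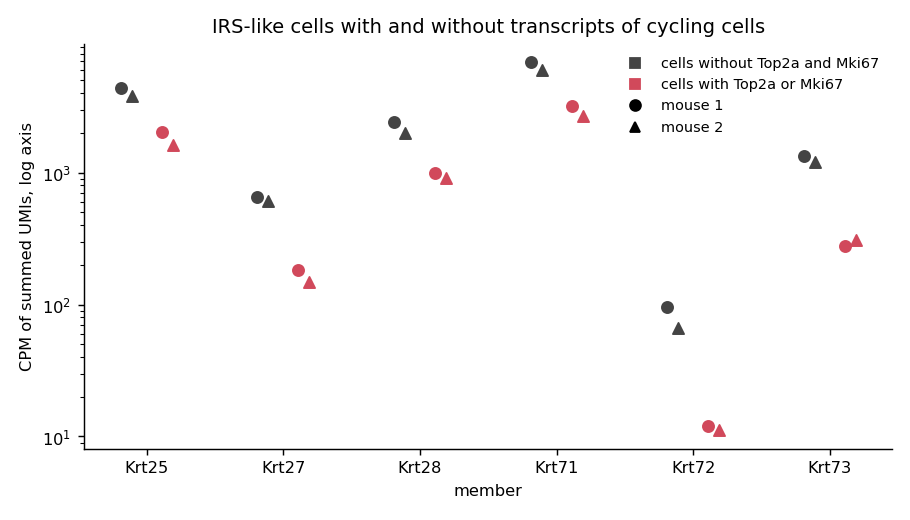
CPM of UMIs summed per mouse (vertical, log axis) for 6 members in IRS-like cells with Top2a or Mki67 (red) and without (grey), circles for mouse 1 and triangles for mouse 2. The gap is widest for Krt72 (95.4 and 66.0 against 12.01 and 11.12 CPM) and narrowest for Krt71, Krt25 and Krt28.

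Other genes of the sheath and hair lineage were read from lists. Of 8 sheath proteins and enzymes, 5 were tested and 3 fell in the cells with Top2a or Mki67: the filament cross-linking protein Tchh (log2 fold change -2.0), the deiminase Padi3 (-2.01) and the transglutaminase Tgm1 (-2.36). Tgm3 (-1.10) and Padi1 (-1.03) did not pass. Of 8 regulators tested, 1 rose, the progenitor factor Lhx2 (1.54), and Gata3 did not pass (-0.37). Krt75 rose too (1.62), against 3.29% of all genes called higher, and of the hair shaft keratins the single one tested, Krt35, did not pass (-0.53). The median log2 fold change over all genes tested was -0.01.

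The genes whose levels across skin clusters were most like those of the summed members were read over the clusters of all skin cells. Over 42 sums of cluster and mouse, the highest Pearson correlation of log2 CPM was that of Golga7b, 0.91, at 60.4 and 68.1 CPM in IRS-like and 12.1 and 11.3 CPM in matrix-like cells. It was followed by E2f2 (0.87), Hnrnpdl (0.87), Taf13 (0.87), Usp1 (0.87), Ipo5 (0.86), Mrpl3 (0.85), Gm36660 (0.85), Ddx39 (0.85) and Srsf2 (0.84). Taf13 was at 319 and 309 CPM in IRS-like and 50.7 and 42.0 CPM in matrix-like cells, whereas Hnrnpdl was at 221 and 207 against 218 and 211 CPM, so likeness over skin clusters did not mean a higher level in the sheath than in the matrix. Free RNA enters every one of these sums.

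In the cultured HFSCs the members were almost absent. Of 449 and 208 barcodes, 222 and 78 singly tagged cells passed the filters in mouse 1 and mouse 2, with 6797449 and 2234339 UMIs. Krt25, Krt26, Krt71, Krt72 and Krt73 had 0 UMIs in both mice, which allows levels of up to 0.441 CPM and 1.34 CPM at a limit of 3 counts. These limits pool all cultures. In mouse 1 the limit was 0.812 CPM for BMP2/4 (113 cells) and 1.15 CPM for Rspo+BMP2/4 (92 cells). It was 15.9 CPM for B-27, 21.9 CPM for Rspo and 31.2 CPM for Rspo+BMP2/4 with RARi, of 5 cells each, so low levels there could be missed. Krt28 had 3 UMIs in mouse 1 and 1 in mouse 2, and Krt27 had 2 and 1. Krt28 was thus found in 1.35% of cells of mouse 1 (95% exact binomial interval 0.280% to 3.90%) and 1.28% of mouse 2 (0.0325% to 6.94%). These intervals and limits cover counting error only.

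The few UMIs were spread over cultures. In mouse 1 Krt28 had 2 UMIs in BMP2/4 (113 cells) and 1 in Rspo+BMP2/4 (92 cells), and Krt27 had 1 in Rspo (5 cells) and 1 in Rspo+BMP2/4. In mouse 2 both had 1 UMI in the Rspo+BMP2/4 culture with RARi (21 cells). FBS had no cell that passed the filters and atRA+PKCi had 2 and 1, so for these cultures nothing can be said. Basal keratins were plentiful in the same cells, with Krt14 at 12058 and 11160 CPM in the 2 mice. The sheath regulator Gata3 was at 31.8 and 42.1 CPM and Tchh at 7.06 and 10.7 CPM.

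No member passed the filter for the 3 comparisons of cultures, so none was tested. Among 6265 genes, edgeR called 5.71% for BMP2/4 against B-27 (0.431% higher and 5.28% lower). Of 4 genes of the sheath list tested 2 fell, Rptn (log2 fold change -9.45) and Tgm3 (-3.71). Rptn was not among the markers detected in any IRS-like sub-cluster. For adding Rspo to BMP2/4 edgeR called 0% (44 genes at an unadjusted p under 0.05), and for adding RARi 0% (232 genes). DESeq2 called 0 genes in both.

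The RNA-seq libraries, with 25150162 to 35879630 estimated counts each, gave between 7 and 24.0 counts over all 8 members together. Apart from Krt71 no member exceeded 10 counts in a library. Krt71 was at 15 and 14 counts in the 2 libraries labelled Rxra cKO in atRA+PKCi. It was at 1 and 3 counts in those labelled Rxra cKO in FBS, 3.31 and 1 in wild-type atRA+PKCi, and 0 and 2 in wild-type FBS. The 2 libraries labelled Rxra cKO in atRA+PKCi stood above the other 6. In bulk samples fewer cells of a type and less RNA per cell cannot be told apart.

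Krt71 was the only member to pass the filter on low counts, through the group in which it was high. The tests of that group below are thus not independent of the filter, and their values are a description only. It passed the test for atRA+PKCi against FBS in the libraries labelled Rxra cKO (log2 fold change 2.67 ± 0.85 SE, adjusted p = 0.0322, edgeR, 43.0% of 15965 genes called). It also passed for Rxra cKO against wild-type in atRA+PKCi (2.75 ± 0.84, adjusted p = 0.0278, edgeR, 43.2% of genes called). With such shares of all genes called (20.8% and 23.0% in the higher direction), a call of 1 gene is no result about the members. The interaction of genotype and medium, which tests whether the medium effects differ, gave 1.96 ± 1.75 (adjusted p = 0.463, edgeR, 24.6% of genes called).

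Both calls rest on few counts. The medium call was lost with the mouse as a block (adjusted p = 0.0616), with DESeq2 (0.163), and without any one of the 4 libraries labelled Rxra cKO (0.0974 to 0.180). The genotype call was lost with DESeq2 (adjusted p = 0.147), without either Rxra cKO atRA+PKCi library (0.0905 and 0.142), without either wild-type atRA+PKCi library (0.0617 and 0.159) and without Rxra cKO FBS replicate 2 (0.0503). For the remaining pair of comparisons edgeR did not call Krt71: its log2 fold change was 0.70 ± 1.28 for medium in wild-type (adjusted p = 0.674, 53.9% of genes called) and 0.78 ± 1.28 for genotype in FBS (adjusted p = 0.661, 42.8%).

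Krt27 was highest in the libraries labelled Rxra cKO in FBS, at 9 and 6 counts, and was at 1.00 and 3 counts in Rxra cKO atRA+PKCi, 1 and 3 in wild-type FBS and 3 and 0 in wild-type atRA+PKCi. Krt74, a pseudogene in this annotation, was at 0 and 10 counts in wild-type atRA+PKCi, 5 and 0 in Rxra cKO atRA+PKCi, 4 and 1 in wild-type FBS and 0 and 0 in Rxra cKO FBS. The 2 wild-type atRA+PKCi libraries thus held the lowest and the highest Krt74 count of all libraries. Krt27 was higher in both Rxra cKO FBS libraries than in the other 6, but at these counts it did not pass the filter and was not tested. Counts of such similar genes may be split between copies by the estimation. Rxra itself was at 157 and 155 CPM in Rxra cKO against 160 and 149 CPM in wild-type in atRA+PKCi, and at 98.0 and 92.0 against 136 and 108 CPM in FBS, so the genotype label could not be read from whole-gene counts in atRA+PKCi.

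Of the sheath keratins Krt71 alone could be tested in these comparisons, whereas the list of sheath proteins and enzymes was tested in full. All 8 were tested by edgeR, and with atRA+PKCi against FBS in wild-type 6 fell and 1 rose. Tgm3 fell by 8.12 and Tchh by 2.63 on the log2 scale, while Padi1 rose by 3.26. Of all genes 27.2% rose and 26.6% fell in that comparison. In the libraries labelled Rxra cKO, 5 fell and 2 rose, with Tchh rising by 0.95, against 22.2% of all genes called lower. The interaction was called for all 8, 6 higher and 2 lower, against 13.3% and 11.3% of all genes. Between genotypes, 1 rose and 4 fell in FBS (22.3% and 20.5% of all genes), and 5 rose and 2 fell in atRA+PKCi (23.0% and 20.2%). Gata3 rose by 0.72 in wild-type and by 0.40 in Rxra cKO, and Krt75 fell by 4.75 and 3.20. Of the regulators, 6 of 8 were tested, and 2 rose and 4 fell in wild-type. Of 13 hair shaft keratins 5 were tested, and 4 rose and 1 fell in wild-type. Not all genes of the sheath list followed the members across skin clusters. Over 42 sums of cluster and mouse, the correlation with the summed members was 0.68 for Tgm3 and 0.63 for Tchh. With Rptn left out, it was 0.12 (Tchhl1) to 0.44 (Dsg4) for the others. A change of the list is thus not by itself a change of the IRS. These comparisons share libraries, and the lists were drawn up with earlier results of these data known.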

How the data were processed

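Single-cell UMI counts were deposited by the authors as Cell Ranger matrices (version 7.0.1 and mm10 in the submitters' processing notes), without the study's later removal of free RNA and doublets. The RNA-seq table holds estimated counts the authors made with Salmon 1.4.0, which were rounded here for edgeR. A deposited table of normalised signal (counts divided by size factors) served only for limma alternatives on log2 values with a pseudocount of 1 or 0.5.

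Cells with at least 500 genes, at least 1000 UMIs and under 10% mitochondrial UMIs were kept. Scrublet (scanpy 1.11.5) marked 5.76% and 4.22% of skin cells as doublets, which were removed. Leiden clustering (resolution 0.5) and diffusion pseudotime (30 neighbours, 20 components) left out the members. A sub-cluster was named from marker lists only if at least 3 markers of the list were detected and no other list had more among its top genes. Hashtags were called with HTODemux (Seurat 5.3.0, quantile 0.99). Cultures with under 5 cells in a mouse were not tested. Sums per mouse and RNA-seq counts were tested with edgeR 4.0.16 (quasi-likelihood, TMM, filterByExpr, Benjamini-Hochberg over all genes), and called at adjusted p under 0.05 (for cultures, adjusted p under 0.01 and more than a change of 1 on the log2 scale), and the tests were run on simulated data. DESeq2 1.42.0 and limma 3.58.1 were alternatives. With 2 mice per group the p-values measure the spread between these samples.

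The members, lists and tests were chosen with earlier results of these data known. The genes named besides members are those of the lists, the markers and leading genes of clusters, and the 10 genes most correlated with the summed members. Sums of the same mouse pair because they come from 1 animal (correlation of their deviations 0.43). The labels tie RNA-seq libraries of 1 number within a genotype to 1 mouse, and their deviations correlated at 0.07 (wild-type) and -0.02 (Rxra cKO). ATAC-seq and binding libraries were not analysed here.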

Additional observations from a re-analysis of the deposited data

How the results depend on the processing

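The precision is limited by 2 mice per group, by few cells without Top2a or Mki67, and by RNA-seq counts of the members near 0. Among recomputed counts and values 89 stayed within 1.5 times or within the spread between mice and 25 did not. The 89 include counts of 0 in the 3 comparisons of cultures, where no member passed the filter and 0 was largely fixed in advance. They are thus no measure of robustness. Over all IRS-like cells 3 of 6 members were called. DESeq2 called 6, the mouse as a replicate block 6, no filter on low counts 0 of 7 (7 at an unadjusted p under 0.05, and edgeR then called 0 of 20466 genes), and the Prr9-led cells alone, added after seeing the data, 0. Leaving out 1 sum gave 1 to 4, with 1 when either sum of cells with Top2a or Mki67 was left out. In RNA-seq, the medium call of 1 member in Rxra cKO became 0 with DESeq2, with the replicate block and with limma at pseudocount 0.5, and leaving out 1 library gave 0 to 1. The genotype call in atRA+PKCi became 0 with DESeq2 and limma at pseudocount 0.5, and leaving out 1 library gave 0 to 1. The block changed no other call. Krt71 followed Krt25 by 3 bins, by 1 after thinning to 1500 UMIs or at 3 UMIs, by 5 with the 2 ORS and stem cell-like sub-clusters on the axis (added after seeing the data), and by 3 to 4 with 1 mouse left out. Both types were found in a mean of 84.5% of IRS-like cells, and in 93.0% with all UMIs of each cell (added after seeing the data). The causes were not tested.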
